A study of Mus musculus with 12 samples.

Results

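RGS proteins (regulators of G protein signalling) were examined in mouse follicular helper-like T cells through 7 genes, Rgs1, Rgs2, Rgs3, Rgs10, Rgs14, Rgs16 and Rgs19. The genes were taken by symbol from a listed set, and all 7 were found among the 25793 gene symbols of the deposited count table and in the matching FPKM table (fragments scaled by transcript length and sequencing depth). The set leaves out other RGS genes, which are described separately where they bear on the members.

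The study sequenced polyadenylated RNA from 12 libraries of sorted lymph node T cells, 6 labelled wild type (Pdcd1+/+, here WT) and 6 labelled knock-in (Pdcd1KI/KI, here KI). In both groups the cells were CD4+ OT-II T cells on the C57BL/6 strain, whose T cell receptor recognises an ovalbumin peptide. They were transduced with GFP, transferred into B6 mice with dsRed-expressing MD4 B cells, and sorted as CXCR5hi GFP+ cells on day 5 after subcutaneous immunization with HEL-OVA, given in the labels with LPS and alum. The groups therefore share the transgenic receptor, the transduction, the B cell transfer and the immunization, and differ by label only at Pdcd1, which encodes the inhibitory receptor PD-1. What the KI allele changes, the age of the animals, and whether libraries came from separate or pooled animals are not stated in the labels. Each library came from a small pool of 100 to 200 sorted cells, amplified by a protocol first made for single cells. Each title carries a first number, 1 or 2, and a second number from 1 to 3. The meaning of these numbers is not stated, and each first number holds 3 WT and 3 KI libraries. A library is named here by genotype and numbers, as in WT 2-3, and p-values measure only the spread between these libraries, which may be technical.

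Total gene counts per library ranged from 717506 to 1801504, with 10331 to 11115 genes detected. Pdcd1, the targeted gene, ranged from 165.6 to 522.5 CPM (read counts divided by the TMM-scaled depth of their library) in WT and from 21.46 to 129.5 CPM in KI, so the groups did not overlap. T cell markers summed to 4650 to 6116 CPM and follicular helper T cell markers to 1596 to 2362 CPM over all libraries, and every marker of these lists that the table holds had counts. The highest follicular helper markers were Cxcr5, used for the sort (mean 599 CPM), Icos (597), Sh2d1a (445) and Pdcd1 itself (181). Bcl6 averaged only 7.79 CPM, and Il21 averaged 6.48 CPM with counts in 11 libraries.

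RGS proteins shorten signalling by heterotrimeric G proteins. A ligand-bound receptor loads GTP onto a G alpha subunit, which separates from G beta-gamma, and the conserved RGS domain speeds GTP hydrolysis by G alpha so that the subunits rejoin. In lymphocytes the main receptors concerned are Gi-coupled chemokine and lipid receptors such as CXCR5, which guide cells within lymphoid tissue. Rgs1, Rgs2 and Rgs16 encode small RGS proteins of the R4 subfamily, and Rgs3 a larger R4 protein with several isoforms. Rgs10 and Rgs14 belong to the R12 subfamily, where Rgs10 is little more than an RGS domain and Rgs14 also carries Ras-binding and GoLoco segments. Rgs19, also called GAIP, belongs to the RZ subfamily and binds G alpha i proteins.

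The 7 members lie on 5 chromosomes in the mouse build NCBIM37 (mm9), and all are annotated as protein-coding. Rgs2 (ENSMUSG00000026360, chr1:145846468-145851291) and Rgs1 (ENSMUSG00000026358, chr1:146091102-146096372) are on the minus strand of chromosome 1. Rgs13, with 0 counts in every library, lies between them at chr1:145985797-146024502 on the same strand. Rgs16 (ENSMUSG00000026475, chr1:155587479-155592598, plus strand) lies farther along the chromosome, next to Rgs8 at chr1:155500155-155544797 on the same strand. Rgs3 (ENSMUSG00000059810) lies at chr4:62220881-62364052 on the plus strand, Rgs10 (ENSMUSG00000030844) at chr7:135517135-135562272 on the minus strand, Rgs14 (ENSMUSG00000052087) at chr13:55471093-55486048 on the plus strand, and Rgs19 (ENSMUSG00000002458) at chr2:181423124-181428682 on the minus strand. The annotated non-coding genes Gm11209 and Gm15503 lie within Rgs3 and Rgs10, each sharing 0 exon bases with its host.

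Promoter windows from RefSeq (build GRCm38.p6, a later build than that of the counts) were matched by symbol for 5 of the 7 members, Rgs2, Rgs3, Rgs10, Rgs16 and Rgs19; Rgs1 and Rgs14 had no entry. The 250 bases before the start site are shown for Rgs10, the most abundant member, and for Rgs2 and Rgs16, low-level members whose counts varied widely between libraries. Each runs 5′ to 3′ on the gene's own strand. Capitals mark matches, on either strand, to the cAMP response element half-site TGACG, the AP-1 site TGANTCA or the TATA box TATAAA. The Rgs10 window is chr7:128418173-128418422 (minus strand), the Rgs2 window chr1:144004150-144004399 (minus strand) and the Rgs16 window chr1:153740103-153740352 (plus strand).
Rgs10: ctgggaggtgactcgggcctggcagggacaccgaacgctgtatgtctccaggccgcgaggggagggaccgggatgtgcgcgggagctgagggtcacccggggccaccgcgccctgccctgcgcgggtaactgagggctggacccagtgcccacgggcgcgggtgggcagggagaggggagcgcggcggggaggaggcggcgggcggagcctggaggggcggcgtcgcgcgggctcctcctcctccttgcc
Rgs2: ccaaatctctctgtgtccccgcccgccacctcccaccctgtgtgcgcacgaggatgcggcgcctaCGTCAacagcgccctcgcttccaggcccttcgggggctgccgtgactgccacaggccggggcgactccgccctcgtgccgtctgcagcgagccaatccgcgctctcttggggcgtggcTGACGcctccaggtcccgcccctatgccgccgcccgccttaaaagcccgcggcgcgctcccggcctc
Rgs16: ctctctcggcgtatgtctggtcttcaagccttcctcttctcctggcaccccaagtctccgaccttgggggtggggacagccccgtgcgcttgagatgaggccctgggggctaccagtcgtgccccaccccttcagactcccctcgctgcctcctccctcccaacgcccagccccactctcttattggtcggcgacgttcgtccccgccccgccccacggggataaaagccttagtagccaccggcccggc

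The G and C content was 76.4% in the Rgs10 window, 72.4% in that of Rgs2 and 66.4% in that of Rgs16. The Rgs2 window held 2 TGACG matches, at positions -185 to -181 and -67 to -63 from the start site, and TGACG occurs in 17.8% of 32851 promoter windows of this length. The printed Rgs10 and Rgs16 windows held no match to these motifs. TATAAA, found in 12.4% of all windows, occurred in both Rgs3 windows, and TGANTCA, found in 6.75%, occurred in none of the members' windows. The motif GGAAA, the core of NFAT sites, was also searched without capitals, occurs in 55.6% of all windows, and was found in windows of Rgs3 and Rgs19. The matches did not overlap each other. These matches describe letters only and were not tested against the RNA levels.

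The members spanned a wide range of abundance, and Rgs10 dominated the set. In FPKM, which adjusts for transcript length and so allows genes to be compared, Rgs10 averaged 1099 ± 205.2 (SD, n = 12 libraries). It ranked 108 of 25791 gene names by mean FPKM, and between 93 and 131 in single libraries. Its share of the summed FPKM of the 7 members was 94.9% ± 2.16, with a lowest library at 90.2%. Rgs19 came next at 29.4 ± 10.2 FPKM, followed by Rgs3 at 11.7 ± 4.77, Rgs1 at 7.42 ± 6.36, Rgs2 at 5.24 ± 4.04, Rgs16 at 1.76 ± 1.89 and Rgs14 at 1.07 ± 1.03. In bulk RNA of this kind, fewer cells expressing a gene and less RNA per cell cannot be told apart.

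The order was tested within libraries by the mean difference of log2(FPKM + 1), with an exact 2-sided sign-flip permutation test over 12 libraries and Benjamini-Hochberg adjustment over all 21 pairs. Of these pairs, 18 differed at an adjusted p under 0.05, and of the 6 pairs of neighbours in the order 3 did. Rgs10 exceeded Rgs19 by 5.24 ± 0.65 on the log2 scale (SD, higher in 12 of 12 libraries, exact adjusted p = 0.000854; the smallest unadjusted p the test can give is 0.000488). Rgs19 exceeded Rgs3 by 1.28 ± 0.81 in 11 of 12 libraries (exact adjusted p = 0.00146). Rgs2 exceeded Rgs16 by 1.24 ± 1.11 in 10 of 12 libraries (exact adjusted p = 0.00833). The remaining neighbours did not differ beyond their spread: Rgs3 and Rgs1 (exact adjusted p = 0.0977), Rgs1 and Rgs2 (exact adjusted p = 0.515), and Rgs16 and Rgs14 (exact adjusted p = 0.515).

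**Figure D1:**
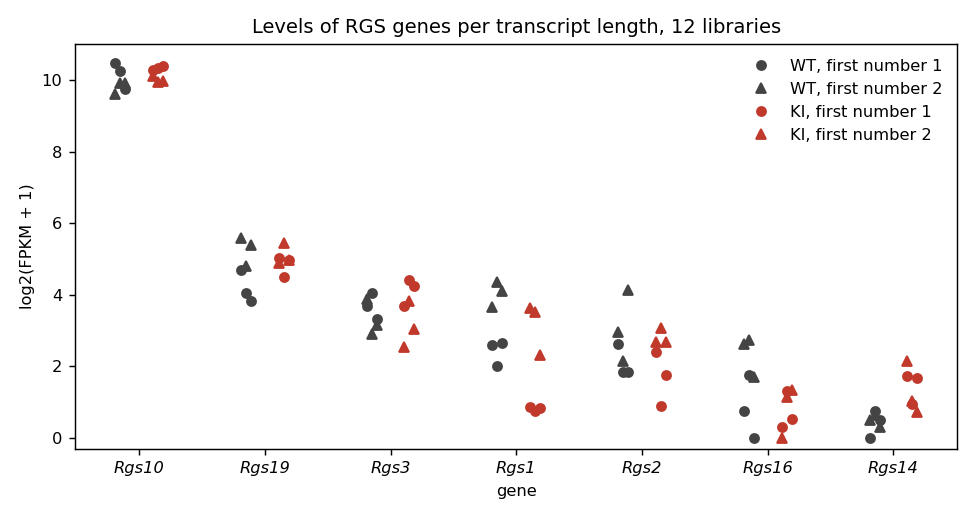
FPKM of the 7 Rgs genes in each of the 12 libraries, plotted as log2(FPKM + 1) against the gene; points are libraries, marked by genotype and first title number. Rgs10 stands above every other member in all 12 libraries, with a mean of 1099 FPKM, and Rgs14 and Rgs16 average 1.07 and 1.76 FPKM.

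The first comparison asked whether any member differed between KI and WT cells. None of the 5 members that passed the filter on low counts was shown to differ. Counts of 7542 genes were fitted with edgeR's quasi-likelihood test, and a gene was called at a Benjamini-Hochberg adjusted p under 0.05 over all of them. That comparison called 2 of 7542 genes (0.0265%), 2 higher and 0 lower in KI, and 407 had an unadjusted p under 0.05. Pdcd1, lower in KI without overlap, was therefore not called, so a gene that is not called may still differ. This fit has no term for the first title number, whose meaning the labels do not give. In simulated counts it recovered 26.9% of 2-fold changes and 81.5% of 4-fold changes. The simulated counts held no first-number effect, and their spread came from a model that included the first number. These shares may therefore overstate what the fit recovers in these data. Of the 5 tested members, 0 were called and 0 had an unadjusted p under 0.05; 3 had a higher and 2 a lower fitted level in KI. Rgs14 and Rgs16 fell below the filter and are described separately. The median log2 fold change was 0.08 over the 5 members and 0.02 over all tested genes.

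Rgs10, the most abundant member, had 1533, 1518, 1290, 838, 1025 and 1041 CPM in WT 1-1, 1-2, 1-3, 2-1, 2-2 and 2-3. In KI, in the same order of numbers, it had 1220, 1537, 1499, 1569, 975.0 and 1126 CPM. The ranges overlapped almost fully, with means of 1208 ± 285.2 in WT and 1321 ± 248.3 in KI (SD, n = 6 each). The log2 fold change of KI against WT was 0.13 with a standard error (SE) of 0.19 (edgeR adjusted p = 0.96).

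Rgs19, the binder of G alpha i proteins, had 48.1, 34.2, 37.6, 88.5, 50.6 and 79.3 CPM in the WT libraries, in that order. The KI libraries had 54.0, 45.9, 58.4, 69.8, 74.1 and 58.9 CPM. Every KI value fell inside the WT range, and the log2 fold change was 0.08 (SE 0.29, edgeR adjusted p = 0.98).

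Rgs3, the R4 gene with several isoforms, had 60.0, 88.5, 66.2, 69.6, 33.8 and 39.3 CPM in WT and 53.4, 109.7, 94.8, 32.4, 59.9 and 38.1 CPM in KI. The groups overlapped, although the 2 highest values of all, in KI 1-2 and KI 1-3, were both KI. The log2 fold change was 0.13 (SE 0.33, edgeR adjusted p = 0.972). Without KI 1-2 it was -0.08, and without KI 1-3 it was -0.0051. For Rgs19 it was -0.03 without WT 1-2 and -0.0031 without WT 1-3, so the direction of both genes depended on single libraries.

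Rgs2, a regulator that acts mainly on Gq and is an immediate early gene in many cells, had 20.9, 11.8, 14.3, 26.4, 14.1 and 66.4 CPM in WT. In KI it had 15.3, 3.72, 9.62, 27.4, 26.8 and 22.2 CPM. WT 2-3 stood far above all other libraries, and the other values of the 2 groups overlapped. The log2 fold change was -0.57 (SE 0.53, edgeR adjusted p = 0.947), and without WT 2-3 it was -0.02.

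Rgs1, an inhibitor of chemokine-driven migration of lymphocytes, had 12, 5 and 7 counts in WT 1-1 to 1-3 (8.37, 5.90 and 12.5 CPM) against 2, 2 and 2 counts in KI 1-1 to 1-3 (1.27, 1.24 and 1.37 CPM). Among the libraries with first number 2, WT had 31, 58 and 36 counts (19.5, 32.6 and 27.2 CPM) and KI had 20, 33 and 10 counts (24.9, 16.1 and 6.92 CPM). KI libraries thus lay below all WT libraries at first number 1 and overlapped them at first number 2. The share of all genes that separate in this way, 3 libraries against 3, is not given here. At first number 1 the summed counts were 24 in WT and 6 in KI, a ratio of WT to KI of 6.54 (exact 95% interval 2.60 to 19.6). The ratio was smaller at first number 2, at 1.82 (1.33 to 2.50), and over all 12 libraries, at 2.56 (1.91 to 3.46). These intervals cover counting error only. Over all 12 libraries the log2 fold change was -1.09 (SE 0.71, edgeR unadjusted p = 0.142, adjusted p = 0.938). With each library left out in turn it ran from -0.82 to -1.70, the latter without KI 2-1 (edgeR unadjusted p = 0.0315), and no such fit called it (adjusted p from 0.663 to 0.998). At first number 1 alone it was -2.68 (unadjusted p = 0.015, adjusted p = 0.353), and at first number 2 alone -0.76. With the first number as a block it was -1.50 (SE 0.55, edgeR unadjusted p = 0.0126, adjusted p = 0.436). The interaction of genotype and first number was 1.93 (SE 1.06, edgeR adjusted p = 0.74), and that test called 0 of 7542 genes (0%), with 544 at an unadjusted p under 0.05. DESeq2 called 7 genes for the same term. None of the 5 tested members was called by either tool, so a difference between the first numbers in the KI effect was not shown. In simulated counts the edgeR interaction test recovered 0% of 2-fold changes and 22.7% of 4-fold changes, so it would miss most differences of that size.

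**Figure D2:**
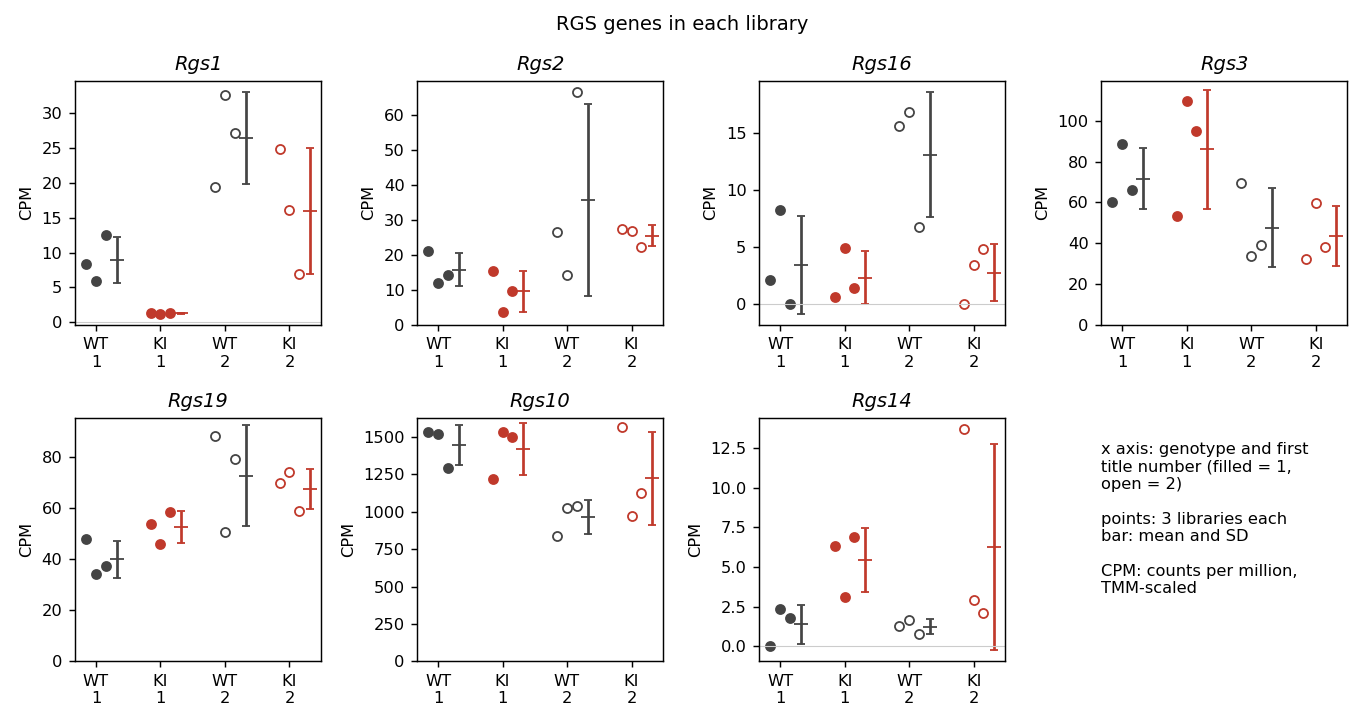
CPM of each of the 7 members in every library, with a panel per gene, libraries grouped by genotype and first title number, and bars at the mean and SD of each 3 libraries. Rgs1 is at 1.24 to 1.37 CPM in the 3 KI libraries of first number 1, and Rgs2 peaks at 66.4 CPM in WT 2-3.

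More genes differed between the first title numbers than between the genotypes. Comparing first number 2 with first number 1, with genotype as a covariate, edgeR called 1208 of 7542 genes (16.0%), 639 higher and 569 lower. Of the 5 tested members, 1 was called, Rgs1, a share near that background. All 5 had an unadjusted p under 0.05, as did 2291 of the 7542 genes. The labels do not say what the first number stands for.

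Rgs1 was higher at first number 2, with a mean of 21.2 ± 9.09 CPM against 5.11 ± 4.69 CPM at first number 1 (SD, n = 6 each). The log2 fold change was 2.42 (SE 0.57, edgeR adjusted p = 0.00598). Within WT and within KI the libraries of first number 2 all lay above those of first number 1, and over both genotypes 5 of 6 did. The share of all genes ordered in this way is not given here. The called direction held when each library was left out in turn, with log2 fold changes of 2.18 to 2.63 and adjusted p from 0.00477 to 0.0172. Within KI alone the log2 fold change was 3.53 (edgeR adjusted p = 0.0373), and within WT alone 1.56 (adjusted p = 0.179, not called).

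Markers of cell types that the sort could have carried over were summed beside the Rgs1 result. Of 10 cytotoxic cell markers 9 had counts and Ncr1 was at 0. Their summed level was 75.5 to 242 CPM at first number 1 (median 108) and 226 to 570 CPM at first number 2 (median 488). Of 10 B cell markers 9 had counts and Pax5 was at 0, with sums of 114 to 231 CPM at first number 1 and 177 to 313 CPM at first number 2. Of 6 germinal centre B cell markers 5 had counts and Rgs13 was at 0, with sums of 139 to 175 CPM at first number 1 and 59.8 to 159 CPM at first number 2. Of 10 myeloid markers 6 had counts, Cd14, Fcgr1, Itgax and S100a8 were at 0, and the sums ran from 1.24 to 220 CPM at first number 1 and from 1.69 to 49.9 CPM at first number 2. Between genotypes the cytotoxic sums were 75.5 to 570 CPM in WT and 76.9 to 484 CPM in KI, and the B cell sums 140 to 313 CPM and 114 to 231 CPM. The part of these cells in the Rgs1 result was not tested.

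The other tested members did not pass the threshold. Rgs2 averaged 30.5 ± 18.3 CPM at first number 2 and 12.6 ± 5.79 CPM at first number 1, a log2 fold change of 1.28 (SE 0.45, edgeR adjusted p = 0.0566), and 5 of the 6 libraries of first number 2 lay above all those of first number 1. Rgs19 averaged 70.2 ± 13.7 against 46.4 ± 9.29 CPM, a log2 fold change of 0.60 (SE 0.24, edgeR adjusted p = 0.0984). Its libraries of first number 2 also lay above those of first number 1 in 5 of 6 cases, and in all cases within each genotype, again with no share over all genes given. Rgs3 averaged 45.5 ± 15.5 against 78.8 ± 22.2 CPM, a log2 fold change of -0.78 (SE 0.27, edgeR adjusted p = 0.0553). Rgs10 averaged 1096 ± 250.8 against 1433 ± 140.1 CPM, a log2 fold change of -0.40 (SE 0.15, edgeR adjusted p = 0.0795). For Rgs2, Rgs3 and Rgs10 the call depended on single libraries and on the tool. Rgs3 passed without WT 2-1 (adjusted p = 0.0224), Rgs2 without WT 2-2 (adjusted p = 0.0312), Rgs10 without KI 2-1 (adjusted p = 0.0122), and Rgs2, Rgs3 and Rgs10 together without KI 1-1. DESeq2 called Rgs2 (adjusted p = 0.0275), Rgs3 (adjusted p = 0.0302) and Rgs10 (adjusted p = 0.0396) besides Rgs1, and limma-voom called Rgs10 (adjusted p = 0.0452) besides Rgs1. Rgs19 was not called in any alternative.

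**Figure D3:**
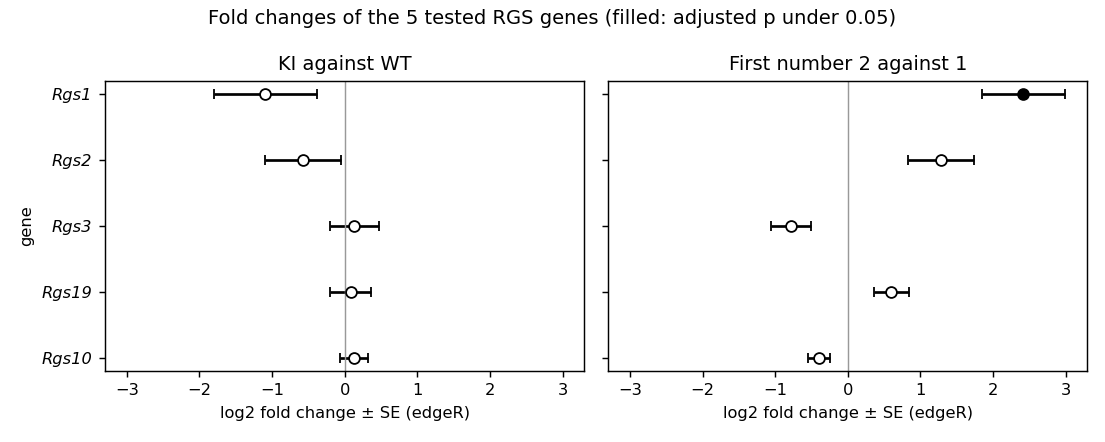
Log2 fold changes of the 5 tested members with standard errors from the edgeR fit, for KI against WT and for first number 2 against 1. The KI against WT fit has no term for the first number. Rgs1 is at -1.09 in the first comparison and at 2.42 in the second, where it is the member called.

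Rgs14 and Rgs16 had too few counts for the fit and were tested with an exact 2-sided permutation test over 12 libraries on log2(CPM + 1). Of 6938 genes below the filter that had a count, 162 (2.33%) had an exact p under 0.05 before adjustment, and 0 had an adjusted p under 0.05. The smallest p that this test can give is 0.002165. After adjustment over so many genes, a gene could pass only if many others also had that smallest p. The adjusted exact p therefore cannot decide whether a single gene differs. The limit that a count of 0 allows, 3 counts, corresponds to 1.46 to 5.37 CPM in a single library.

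Rgs14 had 0, 2, 1, 2, 3 and 1 counts in WT 1-1 to 2-3 and 10, 5, 10, 11, 6 and 3 counts in KI 1-1 to 2-3. In CPM these were 0, 2.36, 1.79, 1.26, 1.69 and 0.755 in WT and 6.35, 3.10, 6.87, 13.7, 2.92 and 2.08 in KI. KI lay above WT without overlap within each first number, and 5 of the 6 KI libraries lay above all WT libraries. How many of all genes separate likewise is not given here. The summed counts were 9 in WT and 45 in KI, a ratio of KI to WT of 4.21 with an exact 95% interval of 2.03 to 9.81, counting error only. The difference of mean log2(CPM + 1) was 1.45, with an exact p of 0.00433 unadjusted and 0.005 when libraries were permuted within first numbers, the smallest p that the second form can give. Of the 6938 genes, 17 (0.245%) had a p as small or smaller, and the adjusted p was 1.0. By an edgeR fit with no filter Rgs14 had a log2 fold change of 2.13 (SE 1.01, unadjusted p = 0.0433, adjusted p = 0.524). Rgs14 therefore did not pass correction for multiple tests by either test, and for the exact test that outcome was nearly fixed in advance. In an alternative chosen after seeing the data, leaving out each library in turn gave differences of 1.19 to 1.64 with exact unadjusted p from 0.00216 to 0.013. Between the first numbers the difference was -0.04 (exact p = 0.948).

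Rgs16, which is induced by T cell activation and limits chemokine receptor signalling, had a lower mean in KI. It had 3, 7, 0, 25, 30 and 9 counts in WT (2.09, 8.26, 0, 15.7, 16.9 and 6.79 CPM) and 1, 8, 2, 0, 7 and 7 counts in KI (0.635, 4.96, 1.37, 0, 3.41 and 4.85 CPM). At first number 2 all 3 WT libraries lay above all 3 KI libraries, with means of 13.1 ± 5.51 and 2.75 ± 2.49 CPM (SD, n = 3 each). At first number 1 the groups overlapped. The share of all genes with such a separation at either first number is not given here. Over all libraries the difference of mean log2(CPM + 1) was -1.13 (exact p = 0.18, adjusted p = 1.0), so it was not larger than the spread between libraries. With no filter, edgeR gave a log2 fold change of -1.63 (SE 0.92, adjusted p = 0.601). Leaving out each library in turn, also chosen after seeing the data, gave differences from -1.67 to -0.83 with exact unadjusted p from 0.0325 to 0.316.

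Outside the 7 members the family was sparse. Of 19 further RGS-domain and RGS-partner genes listed, 11 were at 0 in every library: Rgs4, Rgs6, Rgs7, Rgs9, Rgs13, Rgs18, Rgs20, Rgs21, Rgs22, Rgsl1 and Rgs9bp. Over all 12 libraries a count of 0 allows up to 0.182 CPM, for counting error only. Another 7 had counts below the filter, with totals over all libraries of 111 for Axin2, 57 for Rgs8, 56 for Rgs12, 38 for Rgs11, 8 for Rgs5, 5 for Rgs7bp and 2 for Rgs17. None of these 7 had an exact p under 0.05 between genotypes. Rgs13, a regulator known from germinal centre B cells, was among the genes at 0. Rgs8, the neighbour of Rgs16, had 18 and 17 counts in WT 2-1 and WT 2-2 and 16 in KI 1-2, and at most 2 in any other library. Rgs16 was highest in the same 2 WT libraries, and KI 1-2, with 8 counts, was its highest KI library. Other libraries went the other way. Rgs16 had 7 counts in each of WT 1-2, KI 2-2 and KI 2-3, where Rgs8 had 0. Rgs8 was singled out after its values were seen, and no test was made. Axin1, a scaffold of the Wnt pathway with an RGS domain, was the only one of the 19 to be tested in the fit. It was lower at first number 2 (log2 fold change -0.80, SE 0.25, edgeR adjusted p = 0.0321) and had a log2 fold change of 0.20 between genotypes (adjusted p = 0.961).

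The pathway that RGS proteins act on was described through 7 gene lists, the further RGS genes among them, with 45 genes tested. Between KI and WT 0 of the 45 were called, against 0.0265% of all genes, and the median log2 fold change was 0.03. Between the first numbers 13 of the 45 (28.9%) were called, 5 higher and 8 lower at first number 2, against 16.0% of all genes, and no test was made of whether the lists stand apart. The interaction called 0 of the 45.

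Among the G alpha subunits, 2 of 7 were higher at first number 2, 0 were lower and 5 were not called. Gnai3, an inhibitory subunit, averaged 60.4 CPM at first number 1 and 191 CPM at first number 2 (log2 fold change 1.73, SE 0.29, edgeR adjusted p = 0.000379). Gnal was higher by 1.00 (edgeR adjusted p = 0.0278). Gnas, the stimulatory subunit, and Gnai2, the main inhibitory subunit of lymphocytes, had the highest mean levels of the list at 671 and 241 FPKM. Their log2 fold changes between first numbers were 0.10 and -0.08, and between genotypes 0.12 and -0.07, and neither was called. Of 6 G beta and gamma subunits 0 were higher and 2 were lower, Gngt2 (log2 fold change -2.19, edgeR adjusted p = 0.00259) and Gng5 (-0.53, adjusted p = 0.0371). Gng5 and Gnb2 had the highest levels of that list at 335 and 149 FPKM.

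Of 8 tested chemokine and lipid receptors 1 was higher and 1 was lower at first number 2. Cxcr5, the receptor for CXCL13 and the marker used to sort the cells, averaged 744.6 CPM at first number 1 and 452.7 CPM at first number 2 (log2 fold change -0.72, edgeR adjusted p = 0.00208). Gpr183, the oxysterol receptor EBI2, averaged 101 and 186 CPM (log2 fold change 0.89, edgeR adjusted p = 0.00224). Cxcr3 had a log2 fold change of 1.10 between KI and WT (SE 0.24, edgeR adjusted p = 0.231, not called). Of 4 receptor kinases and arrestins, which uncouple active receptors, 0 were higher and 2 were lower: Adrbk1, encoding GRK2 (log2 fold change -0.83, edgeR adjusted p = 0.000499), and Grk6 (-0.51, adjusted p = 0.022).

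Of 8 other G protein regulators 1 was lower, Gpsm3, a GoLoco protein that binds G alpha i (log2 fold change -0.99, edgeR adjusted p = 0.00319), and 0 were higher. Gnb2l1, the ribosomal scaffold RACK1, had the highest level of that list at 5846 FPKM, and Gpsm3 had 61.4 FPKM. Of 11 effectors of chemokine receptors 2 were higher and 1 was lower. Rap1a and Rap1b, small GTPases that activate integrins, were higher by 1.35 (edgeR adjusted p = 0.000111) and 1.46 (adjusted p = 0.000119) on the log2 scale. Rac2, a GTPase of actin remodelling, had the highest level of that list at 1280 FPKM, with a log2 fold change of -0.23 between first numbers (adjusted p = 0.362).

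**Figure D4:**
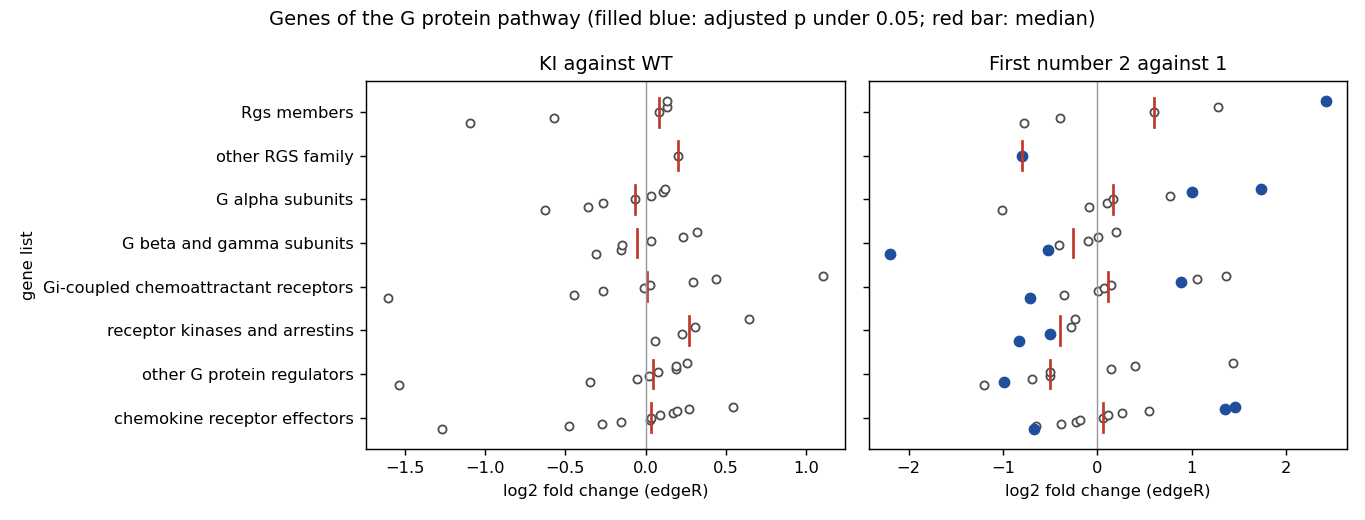
Log2 fold changes of the tested genes of each pathway list, for KI against WT and for first number 2 against 1; each point is a gene, filled points passed an adjusted p of 0.05, and bars mark list medians. No gene of the 45 outside the members is called between genotypes, and 13 are called between first numbers.

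The genes whose levels most resembled each member were taken as the 2 highest Pearson correlations of log2 CPM over the 12 libraries, after the mean of each first number was subtracted, among 7542 genes. These are descriptions of libraries that share their preparation and small cell input, with no p. For Rgs1 they were Ms4a4b (r = 0.949), a membrane protein gene of T cells, and Epc1 (r = 0.935). For Rgs2 they were Sfrs2 (r = 0.888), a splicing factor gene, and Vps4b (r = 0.882). For Rgs3 they were Mtap7d1 (r = 0.90) and Med24 (r = 0.868), a Mediator subunit gene. For Rgs10 they were Ndufs3 (r = 0.904), a subunit of respiratory complex I, and Tcf7 (r = 0.88), the gene of the transcription factor TCF-1. For Rgs19 they were Rassf5 (r = 0.886) and Ddost (r = 0.872). Ddost had r = -0.158 with Rgs19 when the first-number means were kept, so its likeness rests on their removal.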

How the data were processed

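RNA was sequenced in 12 libraries of sorted T cells. The authors deposited raw read counts per gene symbol and FPKM values, and per the submitters' processing notes the build was mm9 and the tools named were CASAVA, TopHat2, Cufflinks, HTSeq and DESeq2. Versions, annotation and use of strand are not given in the sources used here. The deposited counts hold 25793 gene symbols, and the entries that name no gene were left out. The deposited FPKM table has 25819 entries, and repeated names were summed to 25791. Genotypes and title numbers came from the labels.

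Counts were fitted in R 4.3.3 with edgeR 4.0.16 (TMM scaling, filterByExpr, which left 7542 genes, glmQLFit with defaults and its F test), with Benjamini-Hochberg adjustment and a threshold of 0.05. Genes below the filter were tested by exact permutation on log2(CPM + 1), and levels of different genes by exact sign flips on log2(FPKM + 1). The scripts were tested on simulated data. Alternatives used limma 3.58.1, DESeq2 1.42.0, other scalings and filters, FPKM, blocks by title number, and each library left out. Over 30 pairs of libraries of 1 genotype the chi-square per degree of freedom was 9.01 to 43.3, so none agreed within sampling noise. Amplified reads are not independent molecules, so intervals and limits cover counting error only.

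The members and the gene lists were chosen with earlier results of these data known, and the same holds for the tests. The text describes all 7 members, names Pdcd1 as the check of the labels, and of each list and comparison names at most the 2 genes of smallest p that passed and the 2 of highest mean FPKM. The rule adds the 2 genes most like each tested member. Gene positions came from the GENCODE annotation of NCBIM37, matched by symbol, and promoter sequences from RefSeq.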

Additional observations from a re-analysis of the deposited data

Results flagged for a closer look

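In 28 groups of libraries checked, 3 values stood far from the rest of their group by the gap to the nearest library relative to the group's range (above Dixon's critical value for 6 libraries), and chance alone flags about 5% of groups. Rgs2 in WT 2-3 had 66.4 CPM (88 counts). The next WT library had 26.4 CPM, a gap of 0.733 of the range, and the next library of first number 2 had 27.4 CPM, a gap of 0.745. Without WT 2-3 the log2 fold change of Rgs2 was 0.94 between first numbers and -0.02 between KI and WT. Rgs14 in KI 2-1 had 13.7 CPM (11 counts), against 2.92 CPM in the next library of first number 2, a gap of 0.833.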

How the results depend on the processing

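No Rgs member was called between KI and WT in any of 25 alternatives, nor for the interaction in any of 4, and 18 of 21 pairs of members differed in level in all 13 alternatives. Rgs1 had a lower fitted level in KI in all 24 alternatives in which it was tested, with adjusted p from 0.353 to 1.0. Over all genes, the KI against WT count of 2 became 11 with DESeq2 (5 higher, 6 lower), 1 with limma-voom, 4 with no filter, 0 on FPKM with either pseudocount, 0 with libraries summed by genotype and first number, 1 at first number 2 alone, and 0 to 2 with each library left out. It was 0 without WT 1-1, 1-2, 1-3 or KI 1-1, 1-2, 1-3, 2-1 or 2-3, and 1 without WT 2-3 or KI 2-2.

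Between first numbers the count of 1 member became 4 with DESeq2, 2 with limma-voom, 0 for genes with a mean of at least 50 counts, where Rgs1 and Rgs2 were not tested, 0 in summed libraries (Rgs1 2.43, adjusted p = 0.07), 0 in WT alone, and 1 to 4 with each library left out. Over all genes the count of 1208 became 782 on FPKM with a pseudocount of 0.1, 325 in summed libraries, 359 in WT alone, 382 in KI alone and 761 to 1244 with each library left out, lowest without KI 2-2. The interaction count of 0 became 7 with DESeq2 and 140 with no filter. The cause of these shifts was not tested, except that single genotypes and summed libraries hold fewer samples.

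The KI against WT direction turned for Rgs19 (-0.0342 to 0.256 with a library left out, -0.11 at first number 2 alone), Rgs3 (-0.0815 to 0.269 with a library left out, -0.12 at first number 2 alone) and Rgs10 (-0.035 at first number 1 alone), and the cause was not tested.

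Libraries sharing both title numbers had correlated deviations from their genotype means (r from 0.0828 to 0.258, over 0.1 in 5 of 6 pairs). Once first-number means were removed r was -0.0049 on average, so the second number was not taken as a pairing. The deviations did follow the first number. Between WT and KI libraries the mean r was 0.166 with the same first number and -0.165 with different first numbers. The main KI against WT fit leaves the first number out because the labels do not give its meaning. With a replicate block by first number 4 genes were called between KI and WT, and 3 with a block by both numbers, no Rgs member among them. Rgs1 was then at -1.50 (SE 0.55, unadjusted p = 0.0126, adjusted p = 0.436) and -1.60 (unadjusted p = 0.0193, adjusted p = 0.532), and with the block by first number it was the 1 member with an unadjusted p under 0.05. Depth limits Rgs14 most, with 0 to 3 counts in each WT library, and Rgs1 in KI at first number 1, with 2 counts in each library, at or under the 3 counts that a count of 0 allows.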
